A study of Caenorhabditis elegans and Caenorhabditis briggsae
Caenorhabditis elegans with 146 samples.

Results

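The ant-1 genes of Caenorhabditis elegans encode adenine nucleotide translocators, and the 4 of them (ant-1.1, ant-1.2, ant-1.3 and ant-1.4) were taken by their public names from the 20411 genes of an mRNA-seq table. The family was selected on the FPKM values of ant-1.4 in N2 and mixed sex early embryos, which had differed in these libraries, so the values in that contrast are given as a description, with no test. The question was whether ant-1.4 follows the strain, the stage or the sex of the animals. Adenine nucleotide translocators sit in the inner mitochondrial membrane and exchange the ATP made by the ATP synthase for ADP from the cytosol. They are carrier proteins of the same superfamily as the phosphate carrier that brings in the other substrate of ATP synthesis. Animals commonly have several copies of the gene, some used in most tissues and others in fewer cell types.

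The gene ant-1.1 (WBGene00006439, sequence name T27E9.1) lies on chromosome III, ant-1.2 (WBGene00007057, W02D3.6) on chromosome I, and ant-1.3 (WBGene00010485, K01H12.2) and ant-1.4 (WBGene00020140, T01B11.4) both on chromosome IV in the RefSeq annotation of assembly WBcel235. None is on the X chromosome, the subject of the study. Levels were given as FPKM, which scale the reads of a gene by transcript length and by the depth of the library. They do not correct for differences between libraries in RNA composition, so each library was scaled further before the tests. Without that scaling the median log2 fold change of all genes was -0.26 in dpy-21(e428) against N2 early embryos. The levels given for single libraries are without it.

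Whole animals of 23 groups were sequenced in 79 libraries with FPKM values, and 6 further libraries of L1 larvae held counts. Hermaphrodites were of the wild type strain N2, and mixed sex animals came from males crossed with hermaphrodites of the obligate outcrossing strain BS553, fog-2(oz40), in which about as many males as XX animals are expected. These groups were collected as early embryos from young adults, as comma stage embryos after 4 hours of aging, as L1 larvae after 6 hours on plates and as L3 larvae after 24 hours on plates. The mutants were dpy-27(y56) embryos and L1 larvae from mothers of strain MK4, dpy-21(e428) of strain CB428, set-4(n4600) of strain MT14911 and set-1(tm1821) larvae of strain SS1075. Homozygous dpy-27(y56) embryos came from mothers without the marked balancer chromosome and lacked both maternal and zygotic dpy-27. That balancer is qC1 on chromosome III, which carries dpy-19 and glp-1 alleles, and the study states that it also encodes a rol-6 allele. A further early embryo group was labelled heterozygous, and whether each of its embryos was heterozygous is not given. Homozygous set-1(tm1821) larvae were picked for the lack of the GFP on the hT2g balancer that the heterozygotes carry. The hT2g balancer involves chromosomes I and III and carries bli-4 and let alleles, and ant-1.1 lies on chromosome III. For RNAi, N2 animals fed on bacteria with a dpy-27 plasmid or with an empty vector as the control RNAi. Sex and strain were not separated at any stage, because all hermaphrodites compared with mixed sex animals were N2 and all mixed sex animals BS553. Each replicate was a pool of several collections of many animals, so fewer cells of a type and less RNA per cell cannot be told apart.

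Some libraries went against their labels or stood apart. The values of N2 L1 replicate 3 equalled those of mixed sex L1 replicate 1 for each of the 20376 genes that could be compared, and both were left out, which leaves 2 libraries in each L1 group. The gene her-1, which specifies male fate, lay between 85.1 and 163 FPKM in the mixed sex early and comma embryos, against 1.23 to 9.48 in N2 at these stages. In the library labelled mixed sex L3 replicate 1, her-1 was at 0 FPKM and fog-2 at 4.81 FPKM, values within or next to those of N2 L3 (her-1 at 0 in all 3 and fog-2 between 4.23 and 5.58), while mixed sex L3 replicates 2 and 3 had her-1 at 4.76 and 8.50 and fog-2 at 1.41 and 1.05 FPKM. The gene set-4 was at 0.223 FPKM in the library labelled dpy-21 mixed embryo replicate 3 and at 52.6 FPKM in the library labelled set-4 mixed embryo replicate 2, while the other dpy-21 libraries had 32.7 to 62.2 and the other set-4 libraries 0.0430 to 0.138. In dpy-21(e428) early embryos, dpy-21 itself was at 75.0, 48.5 and 21.4 FPKM in replicates 1 to 3. The gene dpy-27 was lower in mixed embryos on dpy-27 RNAi (26.00 to 36.91 FPKM) than on control RNAi (64.9 to 135), but in L3 larvae on dpy-27 RNAi it was at 115, 15.8, 15.7 and 19.9, against 17.1 to 25.98 on control RNAi. These are RNA levels, and by western blot the study reported a loss of DPY-27 protein at both stages, smaller in L3 larvae.

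Within the family, ant-1.1 held nearly all of the signal. Its level lay between 1470 and 8354 FPKM over the 78 distinct libraries, with a median of 5180 FPKM. The highest level of ant-1.3 was 45.3 FPKM, that of ant-1.4 25.8 and that of ant-1.2 1.86 FPKM. The share of ant-1.1 in the summed FPKM of the family was lowest in dpy-21 early embryo replicate 3, at 98.7%. The other 3 genes were listed at 0 in 34 (ant-1.2), 10 (ant-1.3) and 34 (ant-1.4) of the 78 libraries.

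**Figure D1:**
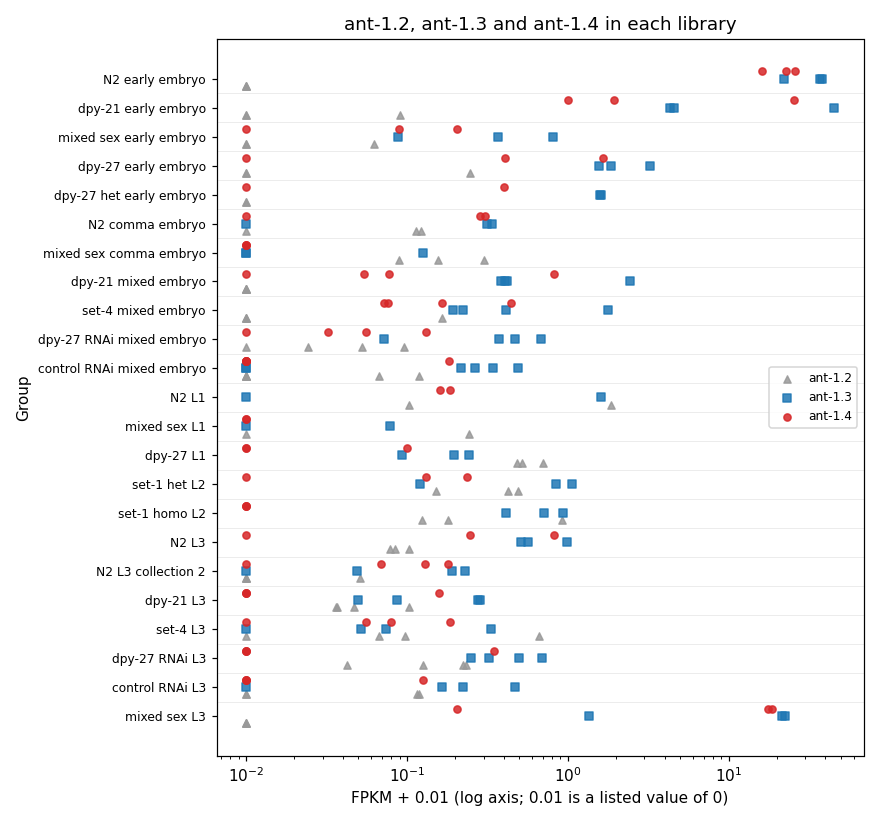
FPKM + 0.01 of ant-1.2 (triangles), ant-1.3 (squares) and ant-1.4 (circles) in each library, by group, on a log axis, where 0.01 is a listed value of 0. The ant-1.4 and ant-1.3 points above 10 FPKM are the same 6 libraries: all 3 of N2 early embryos, 1 of dpy-21 early embryos and 2 of mixed sex L3 larvae.

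In N2 early embryos ant-1.4 was at 22.8, 16.2 and 25.8 FPKM in replicates 1 to 3. The mixed sex early embryos held 0.0794, 0 and 0.194 FPKM of it. These are the values that picked the family, and the groups do not overlap. In these libraries 15.6% of the 9576 genes tested were called different between N2 and mixed sex early embryos. The depth behind the values could be read from the steps of the weakly expressed genes, in which 1 step is the worth of 1 read. By these steps the N2 values of ant-1.4 stood for 403, 279 and 360 reads, and those of the mixed sex embryos for 1, 0 and 1 reads.

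The early embryos of the mutant strains differed from N2 in ant-1.4. In dpy-21(e428) early embryos it was at 1.92, 0.993 and 25.4 FPKM, which stood for 15, 7 and 227 reads. The libraries of this group thus differed among themselves: replicate 3 lay within the range of N2, and replicates 1 and 2 lay below every N2 library and above every mixed sex library. In dpy-27(y56) early embryos ant-1.4 was at 1.64, 0.396 and 0 FPKM (13, 4 and 0 reads). In the heterozygous dpy-27(y56) early embryos it was at 0.393 and 0 FPKM (3 and 0 reads). Every dpy-27(y56) library therefore lay below every N2 early embryo library, whether homozygous or labelled heterozygous.

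Within N2, ant-1.4 was low at each later stage. In N2 comma embryos ant-1.4 was at most 0.297 FPKM, in the N2 L1 larvae 0.150 and 0.174 FPKM, and in N2 L3 larvae 0.237, 0.816 and 0 FPKM. The second collection of N2 L3 larvae held 0.169 FPKM at most, and N2 on control RNAi at most 0.173 in mixed embryos and 0.117 in L3 larvae. A library at 0 allowed a level of up to 3 reads, which for ant-1.4 is 0.126 to 0.876 FPKM depending on the depth of the library. These limits and the read numbers cover counting error only.

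Within the mixed sex animals the high libraries were at another stage. Mixed sex animals had ant-1.4 at 0 in all 3 comma embryo libraries and in both L1 libraries. In mixed sex L3 larvae it was at 0.195, 18.5 and 17.6 FPKM, in replicates 1 to 3. Replicates 2 and 3 were as high as the N2 early embryos, while the library labelled mixed sex L3 replicate 1, the library in which her-1 was at 0, lay within the range of N2 L3. The mixed sex L3 libraries stood for 2, 143.5 and 163.5 reads.

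High ant-1.4 was thus seen at the early embryo stage in N2 and at L3 in mixed sex animals, and it followed neither the strain, the stage nor the sex label alone. Ordered by their means, the groups highest in ant-1.4 were N2 early embryos (21.6 ± 4.92 FPKM, SD, n = 3), mixed sex L3 larvae (12.11 ± 10.3, n = 3) and dpy-21(e428) early embryos (9.44 ± 13.8, n = 3). The fourth was dpy-27(y56) early embryos (0.680 ± 0.858, n = 3), and no later group had a mean above 0.351 FPKM. Each group in this order overlapped the next one in its range of libraries, so neighbours in the order were not separated by their spread.

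The test of N2 against mixed sex L3 larvae, which used none of the libraries that picked the family, did not call ant-1.4. Its log2 fold change was -3.91 (N2 minus mixed sex, 95% confidence interval -8.13 to 0.32, limma adjusted p = 0.364). The 3 members that passed the filter of a mean above 1 FPKM gave 0 calls by limma, and 1 of them had an unadjusted p under 0.05. Of all 12709 genes tested there, 0.0157% were called. Without the library labelled mixed sex L3 replicate 1, where limma called 586 genes in place of 2, the log2 fold change was -5.89 for ant-1.4 (limma adjusted p = 0.0382) and -4.88 for ant-1.3 (limma adjusted p = 0.00975). Both genes passed the filter only through the mixed sex L3 libraries in which they are high, so the filter set the direction of these values, which are given as a description.

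From L1 to L3 in mixed sex larvae, ant-1.4 went from 0 in both L1 libraries to the values above, a mean at least 18.7-fold higher than the level of 3 reads in the shallower L1 library. Its limma adjusted p was 0.081, and 0.00522 without the library labelled mixed sex L3 replicate 1. Here too it passed the filter only through the mixed sex L3 libraries, so both values are a description. The change from comma embryo to L3 was compared between N2 and mixed sex in a model with an interaction term. The difference of the changes was -5.21 for ant-1.4 (log2, 95% confidence interval -9.73 to -0.67, limma adjusted p = 0.288) and -4.55 for ant-1.3 (limma adjusted p = 0.204). By that test 0 of the 3 members that passed the filter were called and 2 had an unadjusted p under 0.05, against 0.0154% of all genes called. Without the library labelled mixed sex L3 replicate 1 the limma adjusted p was 0.0225 for ant-1.4 and 0.0137 for ant-1.3, and 209 genes were called in place of 2. Both genes again entered this comparison only through the mixed sex L3 libraries.

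The levels of ant-1.3 ran beside those of ant-1.4. In N2 early embryos ant-1.3 was at 37.0, 21.9 and 38.2 FPKM. The mixed sex early embryos held 0.804, 0.0776 and 0.356 FPKM, with no overlap. In dpy-21(e428) early embryos it was at 4.59, 4.30 and 45.3 FPKM, so replicate 3 again stood apart from replicates 1 and 2. In mixed sex L3 larvae it was at 1.34, 22.4 and 21.5 FPKM, with the library labelled replicate 1 again low.

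The 6 libraries highest in ant-1.3 were the 6 highest in ant-1.4, of 78 in all. In these 6 libraries the ratio of ant-1.3 to ant-1.4 in FPKM lay between 1.21 and 1.78. It was 1.62, 1.36 and 1.48 in the N2 early embryo replicates, 1.78 in the dpy-21(e428) library, and 1.21 and 1.22 in mixed sex L3 replicates 2 and 3. The ratio was thus lower in both L3 libraries than in each of the 4 early embryo libraries. The 2 genes belong to the same family, and whether reads matching both were divided between them was not tested. Below 50 reads, values came out within 0.02 of a whole number of reads in 60 of 62 distinct libraries above 0 for ant-1.3 and in 36 of 38 for ant-1.4. In mixed sex L3 replicates 2 and 3 the steps came to 188.5 and 216.5 reads for ant-1.3 and to 143.5 and 163.5 for ant-1.4. In the N2 early embryo libraries the steps of both genes were whole.

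**Figure D2:**
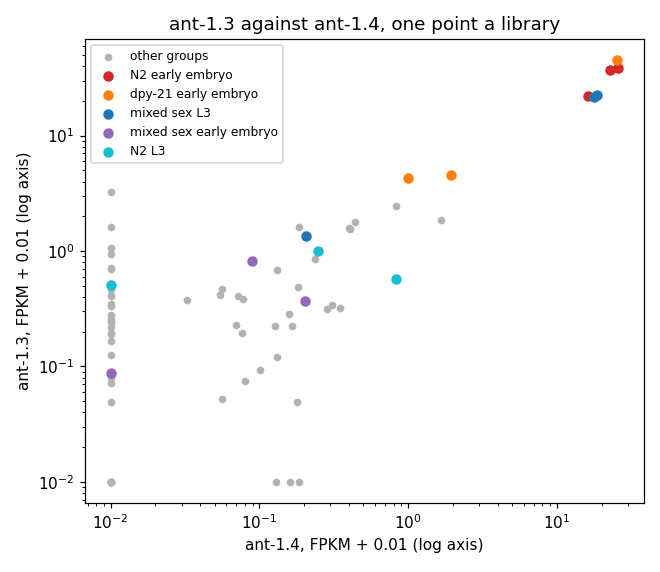
ant-1.3 against ant-1.4, FPKM + 0.01 on log axes, with 1 point for each library. The 6 points at the top right lie between 16.2 and 25.8 FPKM of ant-1.4 and between 21.5 and 45.3 FPKM of ant-1.3, and no other library exceeds 1.92 and 4.59 FPKM.

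Below these levels ant-1.3 was more often seen than ant-1.4. In dpy-27(y56) early embryos it was at 1.86, 1.55 and 3.22 FPKM, and in the heterozygous ones at 1.57 and 1.60 FPKM. These 5 libraries lay above every mixed sex early embryo library and below every N2 early embryo library. The groups of later stages had means of at most 0.901 FPKM for ant-1.3, other than mixed sex L3.

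Comparisons with N2 early embryos share the libraries that picked the family, and ant-1.3 has the same pattern there, so its calls are no independent support. By limma, ant-1.3 was lower in N2 comma than in N2 early embryos (log2 fold change -6.99, adjusted p = 1.48e-05), where it passed the filter only through the early embryos, and lower in dpy-27(y56) than in N2 early embryos (-3.98, adjusted p = 0.000172). Limma called 84.6% and 48% of all genes in these comparisons. In dpy-21(e428) against N2 early embryos neither ant-1.3 (-1.43, limma adjusted p = 0.249) nor ant-1.1 was called, which is 0 of 2 (0 at an unadjusted p under 0.05 by limma), where 6.02% of all genes were. Without dpy-21 early embryo replicate 3, ant-1.3 was called lower in dpy-21(e428) (-2.46, limma adjusted p = 0.000668), in a fit that called 4797 genes in place of 580. From L1 to L3 in mixed sex larvae ant-1.3 differed by 6.27 (95% confidence interval 2.90 to 9.63, limma adjusted p = 0.0206), a description since it passed the filter only through the L3 libraries, and with each of the other 4 libraries left out in turn its adjusted p lay between 0.0783 and 0.0868.

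The marker genes gsp-3 and gsp-4 moved with ant-1.3 and ant-1.4, and the rest of their list did so less. Of a list of 8 spermatogenesis genes, gsp-3, a sperm-enriched protein phosphatase, was at 5.36, 2.44 and 4.35 FPKM in N2 early embryos and at 0.349, 0.0742 and 0 in mixed sex early embryos. The dpy-21(e428) early embryos held 1.13, 0.249 and 4.18 FPKM, and the libraries of mixed sex L3 larvae 0, 6.58 and 10.0 FPKM. The 6 libraries highest in gsp-3 were the same 6 as for ant-1.4, from 2.44 FPKM upward, with the next library at 1.13. For its paralog gsp-4, 5 of 6 were the same. For msp-31, fer-1 and ssp-10 it was 3 of 6, for spe-11 and spe-38 2 of 6, and for spe-9 0 of 6.

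The summed level of the spermatogenesis list was low everywhere, at 5.24 to 16.3 FPKM in N2 early embryos, 2.79 to 4.94 in mixed sex and 0.685 to 10.6 in dpy-21(e428) early embryos. It was 1.52 in the library labelled mixed sex L3 replicate 1, and 29.1 and 36.0 in mixed sex L3 replicates 2 and 3, against 1.04 to 1.66 in N2 L3 larvae. All 8 genes were above 0 in mixed sex L3 replicates 2 and 3 and 3 of 8 were at 0 in the library labelled replicate 1. In N2 early embryos spe-38 was at 0 in replicates 1 and 2 and spe-11 in replicate 2. Other genes of the list were not tied to the same libraries: ssp-10 alone was at 13.4 FPKM in mixed sex L1 replicate 2, where ant-1.4 was at 0. The part of these marker genes in the ant-1.4 values was not tested.

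Markers of later development moved the other way among the early embryos. The summed level of 4 larval cuticle genes was 58.3, 44.8 and 29.4 FPKM in N2 early embryos and 73.2 FPKM in dpy-21 early embryo replicate 3. It was 1707 and 795 FPKM in dpy-21 replicates 1 and 2, 265 to 479 in mixed sex early embryos and 923 to 3977 in the dpy-27(y56) homozygous and heterozygous libraries. The cuticle list includes rol-6, and the balancer of the heterozygous dpy-27(y56) strain encodes a rol-6 allele. The part of that allele in these sums was not tested. A list of 4 body wall muscle genes gave 3.51 to 7.88 FPKM in N2, 13.8 in dpy-21 replicate 3, 17.2 to 30.2 in mixed sex, and 142 to 789 in the other early embryo libraries. The 4 early embryo libraries with high ant-1.4 were thus the 4 lowest in both lists. At L3 the cuticle list did not separate the libraries so: it was 5162 FPKM in the library labelled mixed sex L3 replicate 1 and 8473 and 8689 FPKM in replicates 2 and 3, against 1459 to 7572 in N2. Lists of 4 maternal RNAs and 3 early zygotic genes overlapped between N2 and mixed sex early embryos. The maternal sums were 2627 to 3939 FPKM in N2 and 2978 to 3229 in mixed sex. The early zygotic sums were 68.3 to 95.1 FPKM in N2 and 59.9 to 71.5 in mixed sex. In dpy-21(e428) early embryos these lists were lower than in N2, at 1301 to 2377 and 31.2 to 49.0 FPKM. The part of any of these lists in the ant-1.4 values was not tested.

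The sex genes did not follow ant-1.4 in both stages. Mixed sex L3 replicates 2 and 3 had her-1 at 4.76 and 8.50 FPKM with high ant-1.4. The mixed sex early and comma embryos, with her-1 at 85.1 FPKM or more, had ant-1.4 at 0.194 FPKM or less. The gene fog-2, which in hermaphrodites allows sperm to be made, was at 25.9 to 33.7 FPKM in N2 early embryos, 36.8 in dpy-21 early embryo replicate 3, 8.31 and 8.74 in dpy-21 replicates 1 and 2, and 13.3 to 19.9 in dpy-27(y56) early embryos. It was 0.8287 to 1.201 FPKM in mixed sex early embryos, which carry the fog-2(oz40) allele.

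**Figure D3:**
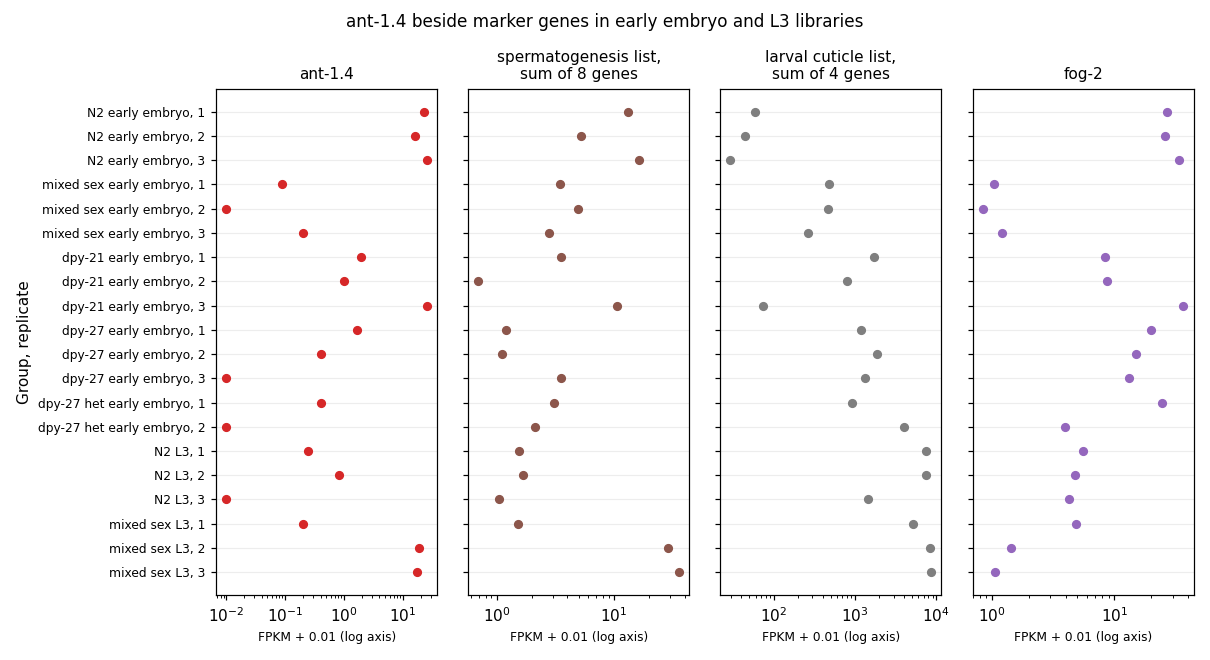
FPKM + 0.01 on log axes of ant-1.4, the summed spermatogenesis list (8 genes), the summed larval cuticle list (4 genes) and fog-2, with 1 row for each early embryo or first-collection L3 library. Of the early embryos, the 4 libraries with ant-1.4 above 16 FPKM are the 4 with the lowest cuticle sums (29.4 to 73.2 FPKM), and at L3 the libraries with ant-1.4 above 17 FPKM have the highest spermatogenesis sums (29.1 and 36.0 FPKM).

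The genes with the group pattern most like that of ant-1.4 were found by Pearson's r over the 23 group means of log2(FPKM + 0.1), among 17434 genes. They were ZK484.7 (r = 0.951), ant-1.3 (0.923), F55C5.1 (0.91), Y67A6A.1 (0.907) and Y57G11A.2 (0.903). The 3 highest groups of each were N2 early embryos, dpy-21(e428) early embryos and mixed sex L3 larvae. The likeness therefore rests on 3 of the 23 groups. Y67A6A.1 was at 3.62, 2.23 and 6.42 FPKM in N2 early embryos, 0.985, 0.364 and 11.8 in dpy-21(e428) early embryos and 0, 19.9 and 21.3 in mixed sex L3 larvae, so it shared the split between replicates. For ant-1.3 the 3 most alike were ant-1.4 (0.923), ZK484.7 (0.873) and F36H12.4 (0.863).

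The gene ant-1.2 was at or near 0 in all groups. Only in N2 L1 replicate 2 did it exceed 1 FPKM, at 1.86 FPKM or 17 reads, against 0.0937 FPKM in N2 L1 replicate 1. That library also held 9.29 FPKM of a summed list of 3 early zygotic genes, which came to at most 0.389 FPKM in the other L1 libraries of N2 and mixed sex animals. In dpy-27(y56) L1 larvae ant-1.2 was between 0.476 and 0.694 FPKM in all 3 libraries. In the early embryos of all strains it was at most 0.238 FPKM, and in N2 early embryos 0 in all 3 libraries, where ant-1.3 and ant-1.4 were highest. It passed the filter in no comparison. The genes most like it were Y110A7A.2 (r = 0.884), ztf-7 (0.866) and K11H12.3 (0.859). Across the 23 group means its r with ant-1.4 was -0.375, a description of levels that mostly stood for a few reads.

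The gene ant-1.1 differed by stage in both strains. In N2 it was at 5869.6, 5696 and 5093 FPKM in early embryos, 1790.5, 1704 and 1714 in comma embryos, 5258 and 4530.1 in L1 larvae, and 5908, 5957 and 6809 in L3 larvae. The comma embryos lay apart from every other stage. In mixed sex animals it was at 4343, 4380.0 and 3885 FPKM in early embryos, 1535, 1551 and 1469.7 in comma embryos, 5028 and 6044 in L1 larvae, and 6802, 6235 and 5911 in L3 larvae. Comma embryos were again lowest, but the L1 larvae lay above the early embryos here and, on average, below them in N2.

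**Figure D4:**
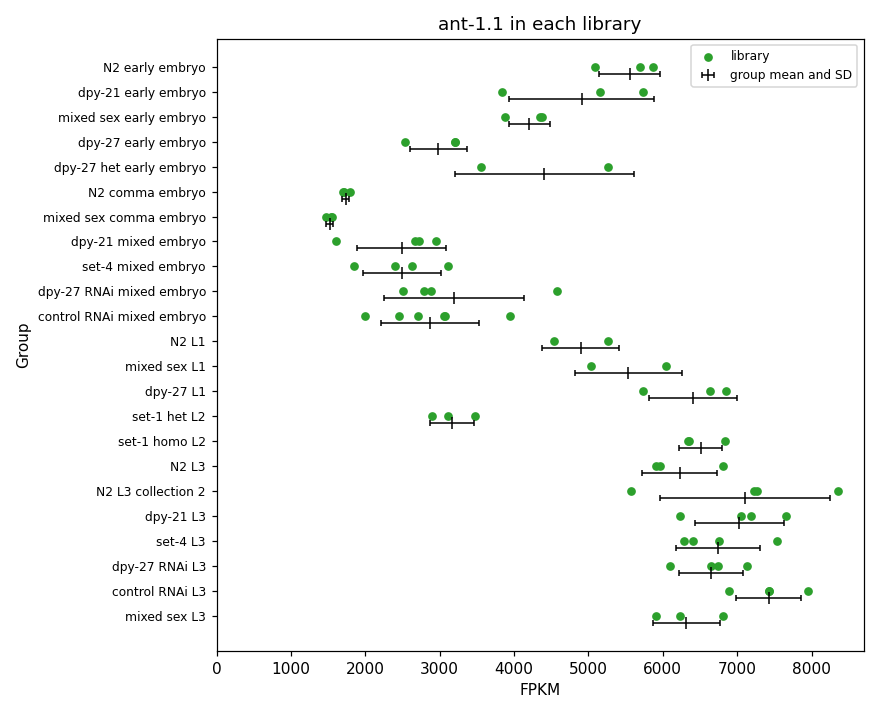
FPKM of ant-1.1 in each library (points) and the mean with SD of each group (bars), by group, on a linear axis from 0. The comma embryo groups have the lowest means, with libraries at 1470 to 1790.5 FPKM, and the 5 highest means are those of L3 groups.

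From early to comma embryos ant-1.1 fell 3.28-fold in N2 (log2 fold change -1.72, 95% confidence interval -2.037 to -1.395, limma adjusted p = 1.28e-05) and 2.78-fold in mixed sex embryos (-1.48, -1.84 to -1.11, limma adjusted p = 7.24e-05). The median of all genes tested was 0.24 in N2 and 0.17 in mixed sex. From comma to L1 it rose 2.96-fold in N2 (1.57, 1.203 to 1.928, limma adjusted p = 0.00103) and 4.2-fold in mixed sex (2.07, 1.78 to 2.36, limma adjusted p = 0.000171). The members called were 1 of 1 from early to comma in mixed sex (80.8% of all genes called), 1 of 1 from comma to L1 in N2 (49.8%) and 1 of 1 in mixed sex (62.2%). Calls were thus common among all genes in these comparisons.

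From L1 to L3, ant-1.1 was 1.5-fold higher in N2 and missed the threshold (0.59, 95% confidence interval 0.14 to 1.04, limma adjusted p = 0.0611), so 0 of 1 member was called (1 at an unadjusted p under 0.05 by limma), where 29.4% of all genes were. In mixed sex larvae it rose 1.44-fold (0.52, 0.16 to 0.89, limma adjusted p = 0.0432), where 33.4% of all genes were called. The mixed sex call of ant-1.1 was lost with any L3 library or either L1 library left out (limma adjusted p 0.0905 to 0.156). Without scaling, the median of all genes moved from 0.09 to -0.23 and the log2 fold change of ant-1.1 was 0.19.

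Between N2 and mixed sex, ant-1.1 was 1.42-fold higher in N2 early embryos, with no overlap of the libraries, in the contrast that picked the family. At the comma stage N2 was 1.19-fold higher, also with no overlap (0.25, 95% confidence interval 0.03 to 0.48, limma adjusted p = 0.431), where 0.0683% of genes were called. The share of all genes without overlap is not given, so these separations are a description. At L1 (-0.11, -0.73 to 0.51, limma adjusted p = 0.918) and L3 (-0.03, -0.38 to 0.31, limma adjusted p = 0.924) the libraries of both strains overlapped. At comma and L1, 0 of 1 member was called by limma, with 1 and 0 at an unadjusted p under 0.05. At L1 limma called 0% of all 13861 genes, and 976 had an unadjusted p under 0.05. Only 2 libraries a group remained at L1, and its interval was the widest of these stages.

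Among the dosage compensation mutants, ant-1.1 was lower in dpy-27(y56) early embryos, at 3202, 3201 and 2536 FPKM, than in every N2 early embryo library, a 2.07-fold fall (-1.05, 95% confidence interval -1.49 to -0.60, limma adjusted p = 0.00376). The heterozygous dpy-27(y56) early embryos, at 3558 and 5258 FPKM, lay above every homozygous library, and the higher of them lay within the N2 range. The test of homozygous embryos against those labelled heterozygous gave -0.80 (-1.92 to 0.31, limma adjusted p = 0.833). Maternal dpy-27, zygotic dpy-27 and the balancer were not separated in it. The marker sums of these libraries differed from N2 as given above, and their part in the fall of ant-1.1 was not tested. By limma 0 of 2 members were called in the homozygous against heterozygous comparison, none with an unadjusted p under 0.05, where 0% of 11147 genes were called and 301 had an unadjusted p under 0.05. In L1 larvae dpy-27(y56) had ant-1.1 at 5729, 6846 and 6636 FPKM, against 5258 and 4530.1 in N2. Before scaling these libraries do not overlap, and the share of all genes without overlap is not given. After scaling the difference was not called (0.20, -0.84 to 1.25, limma adjusted p = 0.837), where 0.34% of genes were.

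On dpy-27 RNAi ant-1.1 lay between 2510.4 and 4577 FPKM in 4 mixed embryo libraries, and in 6 control RNAi libraries between 2001 and 3949.8 with a median of 2878. The groups overlapped (0.15, 95% confidence interval -0.50 to 0.79, limma adjusted p = 1), and limma called 0% of 12552 genes, with 107 at an unadjusted p under 0.05. In L3 larvae it was at 6094, 6737, 7129 and 6641 FPKM on dpy-27 RNAi and at 6891, 7951, 7429 and 7423 on control RNAi (-0.21, -0.49 to 0.07, limma adjusted p = 0.55), where 0.0313% of genes were called. In dpy-21(e428) early embryos ant-1.1 was at 5732, 3837 and 5157 FPKM, around the N2 range (0.07, -0.34 to 0.48, limma adjusted p = 0.799). In L3 larvae ant-1.1 was at 7054.5, 7651, 7184 and 6225 FPKM in dpy-21(e428) and at 6408, 6760.3, 7538 and 6285 in set-4(n4600), against 7272, 8354, 7219.8 and 5577 in the second N2 collection. Neither dpy-21(e428) (-0.08, -0.30 to 0.14, limma adjusted p = 0.761) nor set-4(n4600) (-0.05, -0.31 to 0.20, limma adjusted p = 0.965) was called, where 6.96% and 0.00801% of genes were. The 2 mutants share these control libraries. Each of these comparisons gave 0 of 1 member called by limma, with 0 at an unadjusted p under 0.05.

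The first and second collection of N2 L3 larvae differed by 0.34 in ant-1.1 (95% confidence interval 0.01 to 0.66, limma adjusted p = 0.172), where 8.77% of genes were called. That is 0 of 1 member by limma and 1 at an unadjusted p under 0.05. Between the mixed embryos of the dpy-21(e428) and the set-4(n4600) strain, ant-1.1 differed by 0.02 (-0.64 to 0.68, limma adjusted p = 1), and by -0.09 without the 2 libraries whose set-4 level goes against their label, with 0 of 1 member called by limma either way and 0% of genes called with all libraries (22 of 12938 at an unadjusted p under 0.05).

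Of the genotype comparisons, the one with the largest log2 fold change of ant-1.1 was that of set-1(tm1821) larvae. These are L2 in the labels but L3 in the study's text and in the names of the deposited columns, so their stage is uncertain. Here ant-1.1 was at 3479, 3106 and 2897 FPKM in heterozygous and at 6836, 6346 and 6339.8 FPKM in homozygous larvae. The groups do not overlap, which is a description, since the share of all genes without overlap is not given. Only the heterozygotes carry the hT2g balancer of chromosomes I and III, so its part and that of set-1 cannot be told apart. The log2 fold change was 1.102 (95% confidence interval 0.88 to 1.32), a 2.15-fold difference that missed the threshold (limma adjusted p = 0.0506). Limma called 0 of 1 member, 1 at an unadjusted p under 0.05, and 0.0156% of all 12855 genes. With a pseudocount of 1 it passed the threshold (limma adjusted p = 0.0443). The other 3 genes were at most 1.06 FPKM in both groups, and ant-1.4 was at 0 in all 3 homozygous libraries.

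In the spike-in libraries, L1 larvae were mixed with larvae of C. briggsae before RNA was made, so counts can be scaled to the added RNA. N2 L1 larvae had 6877, 7387 and 11915 counts of ant-1.1, and set-4(n4600) larvae 13559, 17237 and 16490 counts, of 1533531 to 3215078 C. elegans counts in a library. Per 1000 C. briggsae counts these were 53.2, 45.5 and 41.2 in N2 and 59.5, 52.0 and 49.7 in set-4(n4600), with overlapping groups. Scaled to C. briggsae, the log2 fold change was 0.19 (95% confidence interval -0.15 to 0.52, edgeR adjusted p = 0.408), and the median of all genes was -0.24. By edgeR 0 of 1 member was called, 0 at an unadjusted p under 0.05, and DESeq2 with its own size factors over the C. briggsae counts also called 0, where edgeR called 26.2% of all genes. Scaled to the C. elegans counts themselves, it was 0.41 and called (edgeR adjusted p = 0.00611), so whether ant-1.1 was called depended on the reference. The counts of ant-1.2 were 1, 0 and 0 in N2 and 7, 2 and 2 in set-4(n4600), those of ant-1.3 were 2, 2 and 0 against 0, 0 and 2, and ant-1.4 had 0 in all 6 libraries.

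The partners of the translocators in ATP synthesis moved in the same direction as ant-1.1 between stages. A list of 20 genes held subunits and inhibitors of the ATP synthase, the phosphate carriers and vdac-1, the anion channel of the outer membrane, and 19 of them could be tested in each comparison. From early to comma embryos 15 of the 19 fell and 2 rose in N2, with a median of -0.93, where 39.3% of all genes fell and 45.3% rose. In mixed sex embryos 14 of 19 fell and 1 rose, with a median of -0.86, where 38% fell and 42.8% rose. The largest falls in N2 were those of asb-1, a germline form of subunit b (-3.56, limma adjusted p = 2.24e-06), vdac-1 (-2.30, limma adjusted p = 6.42e-06) and the phosphate carrier F01G4.6 (-2.21, limma adjusted p = 5.15e-06).

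From comma to L1, 13 of 19 rose and 1 fell in N2 (median 0.72, with 25.5% of all genes higher and 24.3% lower), and 14 of 19 rose in mixed sex (median 1.00, 32.3% higher). The largest rises in N2 were those of mai-1, which is related to the ATPase inhibitor (2.34, limma adjusted p = 0.00295), F01G4.6 (1.57, limma adjusted p = 0.00178) and vdac-1 (1.397, limma adjusted p = 0.00355). From L1 to L3, 15 of 19 rose in N2 (median 0.84, with 15.9% of all genes higher) and 15 of 19 in mixed sex (median 0.82, 20.5% higher). Here the largest in N2 were Y82E9BR.3, subunit c (1.86, limma adjusted p = 0.00665), asb-1 (1.80, limma adjusted p = 0.00143) and asg-1, subunit g (1.58, limma adjusted p = 0.004). In dpy-27(y56) against N2 early embryos 15 of 19 fell and 1 rose, with a median of -0.65, where 21.8% of all genes fell and 26.2% rose. In set-1(tm1821) larvae, where ant-1.1 was 2.15-fold higher in the homozygotes, 0 of 19 were called by limma, 6 had an unadjusted p under 0.05, and the median was 0.17. Of all 12855 genes tested there, 0.0156% were called and 2143 had an unadjusted p under 0.05.

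**Figure D5:**
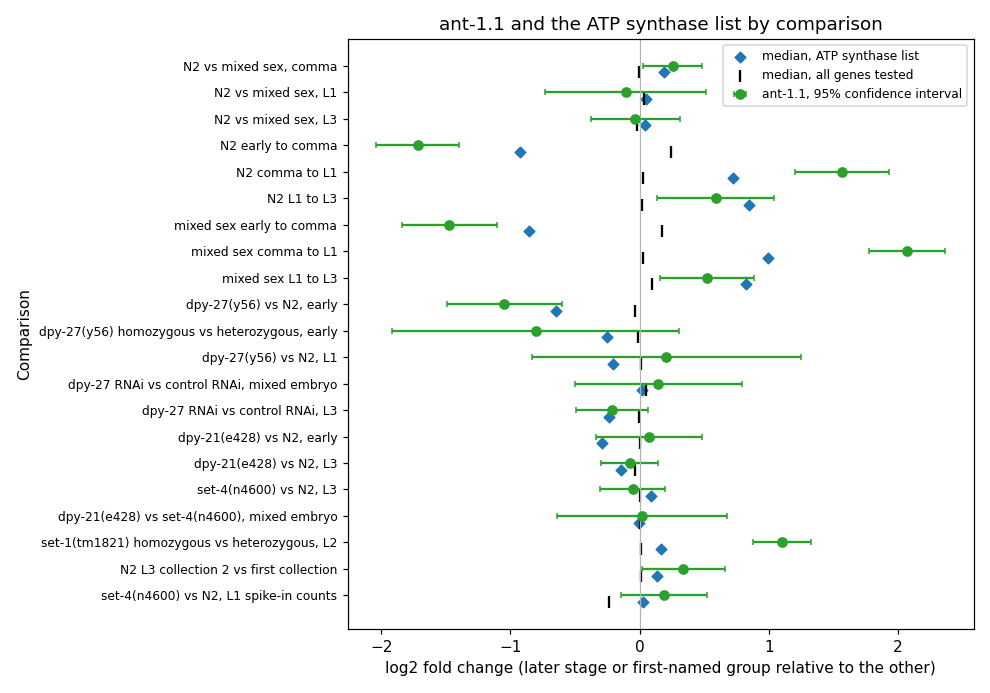
log2 fold change of ant-1.1 with its 95% confidence interval (circles), the median of the 19 tested genes of the ATP synthase list (diamonds) and the median of all genes tested (bars), by comparison. The stage comparisons and dpy-27(y56) early embryos show ant-1.1 and the list on the same side of 0, while in set-1(tm1821) larvae ant-1.1 is at 1.102 and the list at 0.17.

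Other mitochondrial carriers were more mixed. Of 11 carriers, 7 fell and 3 rose from early to comma embryos in N2 (median -0.67), where 39.3% of all genes fell and 45.3% rose. The largest changes were those of R07E3.4 at 2.33 (limma adjusted p = 0.00154), ucp-4, an uncoupling protein relative, at -2.05 (limma adjusted p = 0.000292) and mfn-1, a mitoferrin, at 1.78 (limma adjusted p = 8.79e-06). In N2 from comma to L1, 3 rose and 1 fell, where 25.5% of all genes rose and 24.3% fell, and from L1 to L3, 2 rose and none fell, where 15.9% of all genes rose. The shares of the 11 that rose in these later steps are near those over all genes. Between N2 and mixed sex at the comma stage limma called 0 genes of the ATP synthase list and 0 carriers, with 3 and 2 at an unadjusted p under 0.05. Of all 11709 genes tested there, 0.0683% were called and 1341 had an unadjusted p under 0.05. On dpy-27 RNAi in L3 larvae limma called 0 genes of the ATP synthase list, of which 8 had an unadjusted p under 0.05. Of all 12791 genes tested there, 0.0313% were called and 1570 had an unadjusted p under 0.05.

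The genes most like ant-1.1 over the 23 group means were F23B12.5, the acetyltransferase subunit of pyruvate dehydrogenase (r = 0.932), let-754, an adenylate kinase (0.926), and ivd-1, isovaleryl-CoA dehydrogenase (0.92). All are genes of energy metabolism by their annotation, and their highest group means were in N2 L3 larvae. The r of ant-1.1 was 0.132 with ant-1.3 and 0.129 with ant-1.4, so the abundant member and the 2 restricted ones did not share a pattern over the groups.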

How the data were processed

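The deposited FPKM values were made by the authors with TopHat and Cufflinks on the WS220 genome, from stranded single-end reads. The spike-in read counts per gene were made by the authors with HTSeq after reads matching both genomes were discarded. The submitters' notes name TopHat2 2.0.11, Cufflinks 2.2.0 and HTSeq 0.6.0, and the study's methods give other versions of some of them. Samples were grouped by their GEO labels, and 13 further columns of the FPKM table, of no sample here, were not used. Among the C. briggsae counts, 5 lines name no gene and held 24.5% to 26.9% of the counts, and these were left out, and library totals were 129184 to 331898 C. briggsae counts.

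Each pair of groups was fitted alone: genes with a mean of group means above 1 FPKM were kept, each library was scaled by its median ratio to the gene means, and log2(FPKM + 0.1) was tested with limma 3.58.1 (eBayes with trend, R 4.3.3), with Benjamini-Hochberg adjustment over all genes kept and a threshold of 0.05. Fold changes on this scale understate those of weakly expressed genes. Counts with a mean of at least 10 were tested with edgeR 4.0.16 (quasi-likelihood, TMM over C. briggsae counts), and with DESeq2 1.42.0 as an alternative. Scripts were tested on simulated data. Replicates are separate libraries, and p-values measure the spread between them.

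Relative depth was read from genes below 1.5 FPKM in each library and differed up to 6.96-fold. The members and lists were chosen with earlier results of these data known. Genes named are the 4 members, genes that check the labels, up to 3 per list with the largest change past the threshold, and the 3 or 5 genes most correlated with each member; other markers were named after their values were seen. Alternatives changed the pseudocount, the filter, the scaling, the control group, the replicate block and the count model, and left out each library in turn. Samples with the same number deviated together (correlation of deviations above 0.1 in every pair) in 4 comparisons: dpy-27 RNAi L3, dpy-21(e428) early, set-4(n4600) L3 and set-1(tm1821). Numbers elsewhere only name the libraries.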

Additional observations from a re-analysis of the deposited data

Results flagged for a closer look

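In 11 of the 35 group and gene combinations of 4 to 6 libraries checked, the highest library lay far from the others of its group. Chance gives such a library in about 1 of 20 groups of normally spread values, a rate that does not hold for groups mostly at 0, where a single read is enough. For ant-1.2 these were the library labelled set-4 mixed embryo replicate 2 at 0.155 FPKM, a library of the second N2 L3 collection at 0.0410, a dpy-21 L3 library at 0.0933 and a set-4 L3 library at 0.656 FPKM. For ant-1.3 they were a dpy-21 mixed embryo library at 2.43 FPKM and the same library labelled set-4 mixed embryo replicate 2 at 1.76 FPKM, in which set-4 was at 52.6 FPKM, against its label. For ant-1.4 they were a dpy-21 mixed embryo library at 0.817 FPKM, a dpy-21 L3 library at 0.149, a control RNAi mixed embryo library at 0.173, a dpy-27 RNAi L3 library at 0.340 and a control RNAi L3 library at 0.117 FPKM.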

How the results depend on the processing

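Of 901 values under other settings, 741 kept their call and direction or moved by less than 1 SD. Leaving out the library labelled mixed sex L3 replicate 1 raised the members called from 0 to 2 in N2 against mixed sex at L3 and in the change from comma to L3 (each 0 to 2 over all libraries left out in turn), both of them genes that entered only through the mixed sex L3 libraries. From L1 to L3 in mixed sex larvae the 2 members called were ant-1.1 and ant-1.3. Of these, ant-1.3 entered only through the mixed sex L3 libraries, so its call is a description. The 2 became 1 with a pseudocount of 1, with no filter or with no scaling, and 0 to 2 with libraries left out in turn. From L1 to L3 in N2, 1 member was called with the identical library kept. In dpy-21(e428) against N2 early embryos the count was 0 to 1 with libraries left out, and in set-1(tm1821) larvae 1 with a pseudocount of 1. In the spike-in counts it was 1 with TMM or DESeq2 scaling over C. elegans counts and 1 with the replicate block, where the numbers did not pair the libraries (correlations of deviations 0.0176 to 0.0807). In the 4 comparisons whose numbers paired the libraries, the replicate block changed no member call. The causes were not tested.

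With libraries left out in turn, ant-1.1 ranged over both signs in N2 against mixed sex at L3 (-0.15 to 0.033), in dpy-27 RNAi mixed embryos (-0.051 to 0.27), in dpy-21(e428) early embryos (-0.012 to 0.12) and between the mixed embryos of dpy-21(e428) and of set-4(n4600) (-0.074 to 0.14), as did ant-1.3 in homozygous against heterozygous dpy-27(y56) embryos (-0.15 to 0.40). The sign of ant-1.1 also turned with no scaling in dpy-21(e428) early embryos (-0.20) and between those mixed embryos (-0.016), without both libraries that go against their label (-0.094, a setting chosen after seeing the data), and with the first N2 collection as the L3 control of dpy-21(e428) (0.26) and set-4(n4600) (0.28). That of ant-1.3 turned with the replicate block (-0.15). None of these values was called. The number of genes called moved from 580 to between 1 and 4797 in dpy-21(e428) early embryos, from 878 to between 247 and 5464 in dpy-21(e428) L3 larvae, and from 2 to between 0 and 586 in N2 against mixed sex at L3. In the deepest library 1 read of ant-1.4 was worth 0.042 FPKM, and a value of 0 allowed a level of up to 3 reads, or 0.126 FPKM.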
